A study of Mus musculus with 18 samples.

Results

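Schlafen genes encode a family of proteins found in immune cells of mammals. The family was followed here through the 7 named members Slfn1, Slfn2, Slfn3, Slfn4, Slfn5, Slfn8 and Slfn9, taken by gene symbol, which made up 7 of the 62197 rows of the normalized count table. The data were bulk RNA-seq libraries of mouse bone marrow-derived dendritic cells (DCs), grown for 10 days in medium with granulocyte-macrophage colony-stimulating factor. Cells carried cPLA2, the lipid-releasing enzyme encoded by Pla2g4a (cPLA2 WT), or a conditional deletion of it driven by Cre under the CD11c (Itgax) promoter (cPLA2 KO), so that cells with little Cre keep the gene. In each genotype, cells were left nonconfined and taken directly at the end of culture, were squeezed to a height of 3 µm (confined) and taken 4 h later, or received 100 ng/ml lipopolysaccharide (LPS) for 30 min and were taken the next day, per the labels. The LPS wording of the labels' protocol stands with every library, the nonconfined ones included, and was taken here to apply to the libraries titled LPS alone, while the study's methods give a slightly shorter exposure. This gave 6 conditions with 3 libraries each and 18 libraries in all, with 33027230 to 61300021 reads assigned to genes per library. Confined and nonconfined cells thus differed in time as well as in confinement, and the 2 cannot be told apart. The study calls its libraries biological replicates, but whether those of a condition came from separate mice or cultures is not given in the sources used here, so p-values measure the spread between these libraries, which may be in part technical.

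Schlafen proteins share an amino-terminal core that binds RNA, and several of them bind or cut transfer RNA. Mouse members are sorted by length into a short group, which is little more than this core, an intermediate group with an added linker domain, and a long group that also carries a helicase-like domain. Many of the genes are induced by type I interferons and by microbial products in macrophages and DCs, and the family was first described in developing T cells, where some members restrain growth.

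Pla2g4a, the deleted gene, was read first as a check of the labels. Its normalized counts were 697, 686 and 770.4 in nonconfined cPLA2 WT cells and 548, 542 and 533 in nonconfined cPLA2 KO cells. They were 1369, 1430.3 and 1321 in confined cPLA2 WT cells and 923, 871 and 919.5 in confined cPLA2 KO cells. The KO libraries lay below the WT libraries in both states without overlap, but the row sums reads over the whole gene and most of the signal remained. In the LPS libraries the counts were 1005, 969 and 967 under the WT label and 1065, 1032 and 1028 under the KO label, so that the KO libraries were not lower.

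The Y-linked gene Ddx3y gave a second check. It had 0 to 3.05 normalized counts in the nonconfined and confined cPLA2 WT libraries and 949, 981 and 874 in the nonconfined cPLA2 KO libraries. The confined cPLA2 KO libraries had 1036, 920.2 and 948. Genotype and the presence of Y-linked transcripts, a sign of male donors, therefore cannot be told apart in these comparisons. The libraries labelled LPS cPLA2 WT held 1271, 0 and 662 normalized counts of Ddx3y, and those labelled LPS cPLA2 KO held 2.12, 1476 and 783. Eif2s3y, Kdm5d and Uty split the libraries in the same way. Xist, which is transcribed from the inactive X chromosome of females, had between 12153 and 33681 normalized counts in every library, including those with Y-linked transcripts. Libraries with both thus appear to mix male and female cells. LPS libraries 1 and 3 labelled WT and LPS library 1 labelled KO thus went against the other libraries of their genotype label. LPS library 3 of either label held an intermediate count, and the one labelled KO was kept with its label in the comparisons that leave out the other 3. For these reasons the LPS conditions were pooled over the label for the comparison with nonconfined cells.

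The short members are Slfn1, whose excess slows the growth of thymocytes, and Slfn2, which keeps T cells and monocytes quiescent and shields transfer RNA from cleavage. Slfn1 (GSMG0007885, chr11:83007646-83013495 in GRCm39, plus strand) had 4578, 4779 and 4824 normalized counts in nonconfined cPLA2 WT cells and 5986, 5729.8 and 5843 in confined cPLA2 WT cells. In cPLA2 KO cells it had 6383, 5903 and 5952 when nonconfined and 2802, 2778 and 2814 when confined. The confined KO libraries were the lowest of all 18, the nonconfined KO libraries overlapped the confined WT libraries, and the nonconfined WT libraries lay between. On the log2(normalized count + 1) scale, used for every fold change here with its standard error, Slfn1 differed between confined and nonconfined cells by 0.31 ± 0.065 in WT (limma, Benjamini-Hochberg adjusted p = 0.000361) and -1.12 ± 0.065 in KO (limma adjusted p = 9.71e-12). The difference between these responses, KO minus WT, was -1.43 ± 0.092 (limma adjusted p = 6.56e-11). In bulk RNA, fewer cells that express a gene and less RNA per cell cannot be told apart.

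Slfn2 (GSMG0007884, chr11:82955938-82961502, plus strand) had 19509.8, 19700.3 and 19583 normalized counts in nonconfined cPLA2 WT cells and 38588, 36469 and 36926 in confined cPLA2 WT cells. Its counts in cPLA2 KO cells were 23547, 21997 and 22354 when nonconfined and 20393, 20816 and 20695 when confined. All 3 confined WT libraries lay above the other 3 conditions, while both KO conditions stood close to nonconfined WT and did not overlap it. The log2 fold change on confinement was 0.93 ± 0.044 in WT (limma adjusted p = 1.17e-13), just under the threshold of 1 used to call a gene, and -0.13 ± 0.044 in KO (limma adjusted p = 0.0186). The responses differed by -1.06 ± 0.063 (limma adjusted p = 1.49e-11).

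Slfn1 had 9376, 11733 and 10564 normalized counts in the libraries labelled LPS cPLA2 WT and 12188, 10289.8 and 11020 in those labelled LPS cPLA2 KO. Slfn2 had 72832, 67069 and 68540.5 normalized counts in the libraries labelled LPS cPLA2 WT and 66060.3, 73971 and 69820 in those labelled LPS cPLA2 KO. Every LPS library stood above every nonconfined and confined library for both genes. The log2 fold change of pooled LPS against pooled nonconfined cells was 1.01 ± 0.046 for Slfn1 (limma adjusted p = 1.33e-14). For Slfn2 it was 1.73 ± 0.031 (limma adjusted p = 1.21e-21).

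The intermediate members are Slfn3, studied in T cells and in the intestinal epithelium, and Slfn4, a myeloid gene whose level falls as macrophages mature. Slfn3 (GSMG0007888, chr11:83082156-83109098, plus strand) had 727, 765 and 639.7 normalized counts in nonconfined cPLA2 WT cells and 828, 871 and 837 in confined cPLA2 WT cells. In cPLA2 KO cells the counts were 534, 719 and 669 when nonconfined and 396, 395 and 408 when confined. The nonconfined groups overlapped each other, and the confined KO libraries lay below all others. The log2 fold change of Slfn3 on confinement was 0.25 ± 0.086 in WT (limma adjusted p = 0.0161) and -0.67 ± 0.086 in KO (limma adjusted p = 1.77e-06), with a difference between the responses of -0.92 ± 0.12 (limma adjusted p = 4.93e-06).

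Slfn4 (GSMG0007887, chr11:83066012-83081042, plus strand) had 1850.1, 1801 and 1798 normalized counts in nonconfined cPLA2 WT cells and 4114, 4249.8 and 4109 in confined cPLA2 WT cells. It had 3044, 3131 and 3134 in nonconfined cPLA2 KO cells and 1475, 1340.4 and 1392 in confined cPLA2 KO cells. No 2 of these 4 groups overlapped, and nonconfined KO cells already stood 1.71 times above nonconfined WT cells by the ratio of group means. Slfn4 rose on confinement in WT by 1.19 ± 0.048 on the log2 scale (limma adjusted p = 5.8e-15), and its change in KO was -1.15 ± 0.048 (limma adjusted p = 4.46e-14). The difference between the responses was -2.34 ± 0.068 (limma adjusted p = 6.35e-17).

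With LPS, Slfn3 had 1295, 1365 and 1368 normalized counts in the libraries labelled LPS cPLA2 WT and 1274, 1329.6 and 1287 in those labelled LPS cPLA2 KO. Slfn4 had 15901, 17839 and 16964 normalized counts in the libraries labelled LPS cPLA2 WT and 17444, 18748 and 17496 in those labelled LPS cPLA2 KO. For both genes the LPS libraries lay above all others, and the labels overlapped. Slfn4 had the largest log2 fold change of the 7 members with LPS, 2.87 ± 0.034 (limma adjusted p = 7.94e-25), whereas Slfn3 was not called, at 0.97 ± 0.061 (limma adjusted p = 3.8e-12). With the same total per library, Slfn3 stood at 0.48, and by label it was 0.92 for WT and 1.03, past the threshold, for KO. The mean of the libraries labelled LPS cPLA2 WT was 9.3 times that of nonconfined WT cells for Slfn4, and 1.89 times for Slfn3. Under the KO label, against nonconfined KO cells, the ratios were 5.77 and 2.03.

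The long members are Slfn5, a nuclear protein induced by interferon, and Slfn8 and Slfn9, close relatives of each other. Slfn5 (GSMG0007883, chr11:82842707-82855676, plus strand) had 3725, 3759.6 and 3800.0 normalized counts in nonconfined cPLA2 WT cells and 8273, 8803 and 8778 in confined cPLA2 WT cells. In cPLA2 KO cells it had 2825, 3903 and 3502 when nonconfined and 1136, 1107 and 1111 when confined. The nonconfined groups overlapped, the confined WT libraries were all higher, and the confined KO libraries were all lower. Slfn5 rose by 1.20 ± 0.072 on the log2 scale in WT (limma adjusted p = 5.83e-12) and fell in KO, at -1.60 ± 0.072 (limma adjusted p = 1.54e-13). The responses differed by -2.79 ± 0.10 (limma adjusted p = 3.52e-15).

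Slfn8 (GSMG0009708, chr11:82892984-82911636, minus strand) had 917, 997 and 1032 normalized counts in nonconfined cPLA2 WT cells and 2863, 2979.8 and 2722 in confined cPLA2 WT cells. Its counts in cPLA2 KO cells were 900.3, 949 and 966 when nonconfined and 395, 324 and 375 when confined. As for Slfn5, the nonconfined groups overlapped and the confined groups lay on either side of them. Its log2 fold change was 1.54 ± 0.065 in WT (limma adjusted p = 1.5e-14), the largest rise among the 7 members, and -1.37 ± 0.065 in KO (limma adjusted p = 3.79e-13). The difference between the responses, -2.91 ± 0.092 (limma adjusted p = 3.5e-16), was also the largest of the 7.

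Slfn9 (GSMG0009705, chr11:82869238-82882658, minus strand) had 637, 802 and 783 normalized counts in nonconfined cPLA2 WT cells and 1872, 1881 and 1873 in confined cPLA2 WT cells. It had 346, 525 and 461 in nonconfined cPLA2 KO cells and 285, 285 and 189.6 in confined cPLA2 KO cells. The 4 groups did not overlap, and the KO libraries were below the WT libraries in both states. Slfn9 rose by 1.35 ± 0.15 on the log2 scale in WT (limma adjusted p = 1.05e-07), its value in KO was -0.81 ± 0.15 (limma adjusted p = 0.000134), and the responses differed by -2.16 ± 0.21 (limma adjusted p = 6.06e-08).

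With LPS, Slfn5 had 25176, 24105 and 24005 normalized counts in the libraries labelled LPS cPLA2 WT and 21764, 22513 and 21521 in those labelled LPS cPLA2 KO. Slfn8 had 5769, 5747 and 5512 normalized counts in the libraries labelled LPS cPLA2 WT and 5287, 5537 and 5259.5 in those labelled LPS cPLA2 KO. Slfn9 had 1826, 2102 and 1819.8 normalized counts in the libraries labelled LPS cPLA2 WT and 1946, 1539 and 1483 in those labelled LPS cPLA2 KO. The LPS libraries of Slfn5 and Slfn8 lay above all confined and nonconfined libraries, whereas those of Slfn9 overlapped confined WT cells. Log2 fold changes of pooled LPS against pooled nonconfined cells were 2.7 ± 0.051 for Slfn5, 2.52 ± 0.046 for Slfn8 and 1.64 ± 0.11 for Slfn9 (limma adjusted p = 2.24e-21, 1.3e-21 and 6.06e-12).

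**Figure D1:**
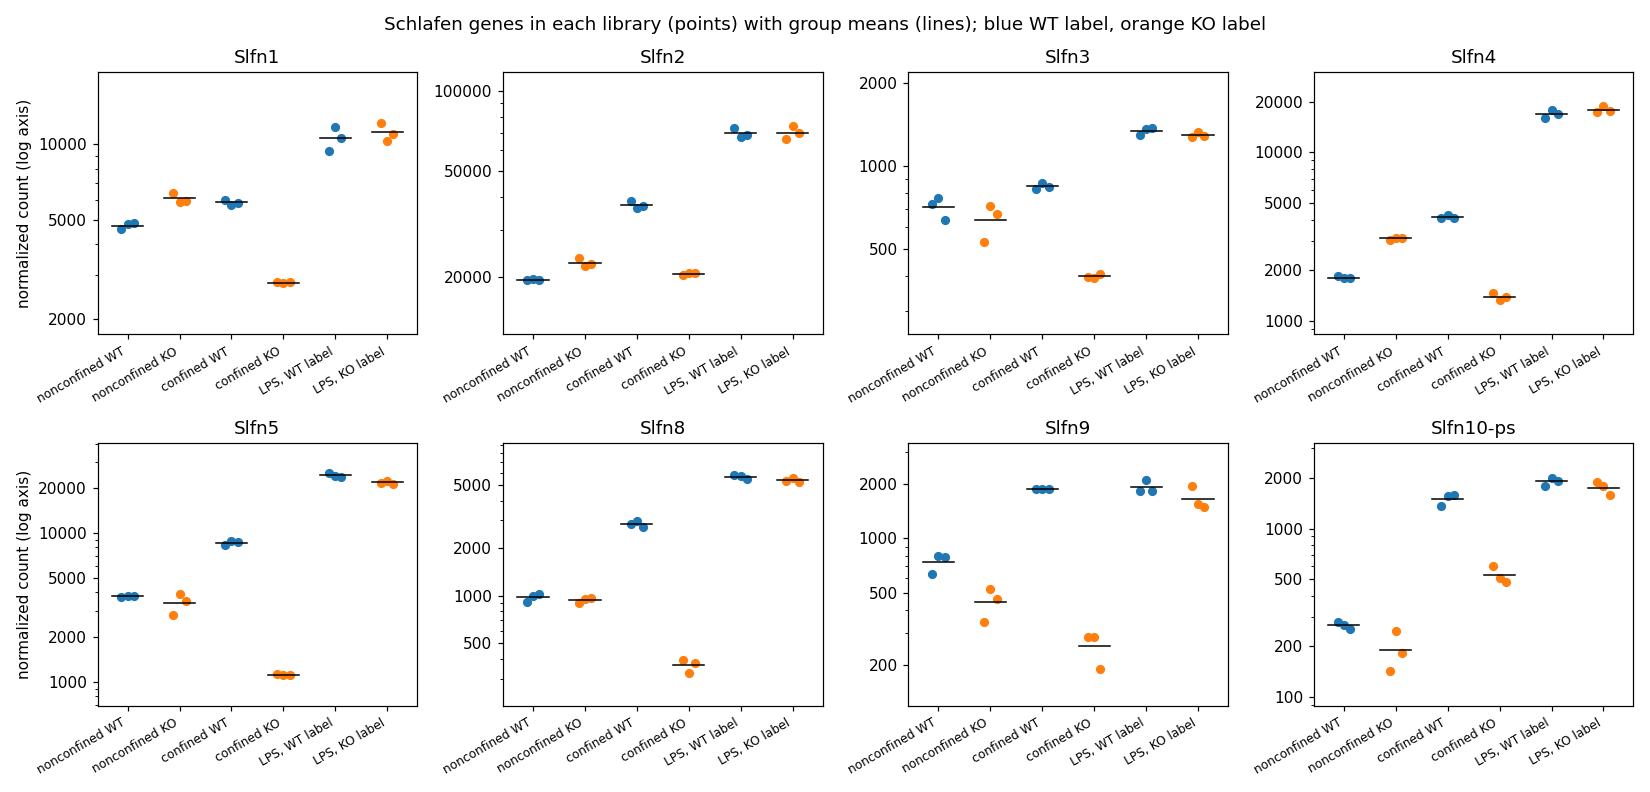
Normalized counts of 7 Schlafen members and Slfn10-ps (vertical log axes) in the 6 conditions (horizontal axes), with 1 point per library, group means as lines and colours for the genotype label. Slfn5 stood at 8618 in confined cPLA2 WT cells and 1118 in confined cPLA2 KO cells, on either side of the nonconfined means.

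Taking the members together, confinement of cPLA2 WT cells raised 4 of 7 (Slfn4, Slfn5, Slfn8 and Slfn9, each higher in 3 of 3 libraries) past an adjusted p of 0.05 and a log2 fold change of 1 and lowered 0 of 7, where 11.4% of the 17875 genes tested were called higher and 7.62% lower. These shares are of calls, and how many of all genes were higher in 3 of 3 libraries was not counted. Genes were tested where at least 3 libraries had 10 or more normalized counts, which all 7 members did in every library. All 7 members had an adjusted p under 0.05 with a higher level, against 28.2% of all genes, and their median log2 fold change was 1.19 beside -0.0055 for all genes. When each library was instead scaled to the same total, the median of all genes moved to -0.23, the values of Slfn1 and Slfn3 shrank to 0.083 and 0.03 (limma adjusted p = 0.325 and 0.798), and Slfn4 and Slfn5 each stood at 0.97, which left Slfn8 and Slfn9 called. With that scaling 1618 genes were called higher and 2141 lower, in place of 2038 and 1362.

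Confinement of cPLA2 KO cells lowered 4 of 7 members (Slfn1, Slfn4, Slfn5 and Slfn8) past both thresholds and raised 0 of 7, where 5.53% of all genes were called lower and 6.43% higher. All 7 had a lower level at an adjusted p under 0.05, against 23.4% of all genes, and their median was -1.12 beside 0.01. Each direction held with the same total per library, with TMM scaling and with edgeR and DESeq2 on recovered reads.

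The test of the difference between the responses called 6 of 7 members lower (all but Slfn3, at -0.92) and 0 of 7 higher, where 6.56% of all genes were called lower and 1.11% higher. The members' median was -2.16 beside 0.051 for all genes. With the same total per library the median of all genes became 0.24, 506 genes were called higher and 1002 lower in place of 198 and 1173, and Slfn2 left the called members at -0.87.

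Before confinement, limma called 0 of 7 members between nonconfined cPLA2 KO and WT cells, as did edgeR and DESeq2 on recovered reads, where 0.85% of all genes were called higher in KO and 0.302% lower. At an unadjusted p under 0.05 the count was 5 of 7, where 22.4% of all genes passed. At an adjusted p under 0.05, whatever the fold, 3 of 7 were higher in KO (4.78% of all genes), namely Slfn1 by 0.36 ± 0.065, Slfn2 by 0.21 ± 0.044 and Slfn4 by 0.77 ± 0.048 on the log2 scale (limma adjusted p = 0.00131, 0.00552 and 4.48e-09), each with 3 of 3 KO libraries above all WT libraries. Slfn9 was lower at -0.75 ± 0.15 (limma adjusted p = 0.00304) in 3 of 3 libraries, where 4.11% of all genes were lower. These shares of all genes are for the adjusted p. How many of all genes had KO and WT libraries without overlap was not counted. Slfn3, Slfn5 and Slfn8 gave -0.16 ± 0.086, -0.15 ± 0.072 and -0.065 ± 0.065 (limma adjusted p = 0.302, 0.208 and 0.626). These 3 values rested in part on single libraries. With 1 library left out, Slfn3 ranged from -0.25 without KO replicate 2 to -0.032 without KO replicate 1, Slfn5 from -0.26 to -0.025 without the same libraries, and Slfn8 from -0.11 without WT replicate 1 to -0.028 without WT replicate 3. Without KO replicate 2 Slfn5 had a limma adjusted p of 0.0098.

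After confinement, 6 of 7 members were called lower in cPLA2 KO than in cPLA2 WT cells and 0 of 7 higher, where 7.31% of all genes were called lower and 2.79% higher. By the ratio of group means, confined WT cells held 7.71 times the normalized count of confined KO cells for Slfn5, 7.83 times for Slfn8 and 7.41 times for Slfn9. The ratios of the other 4 were 2.96 for Slfn4, 2.12 for Slfn3, 2.09 for Slfn1 and 1.81 for Slfn2, whose log2 value of -0.85 ± 0.044 missed the fold threshold (limma adjusted p = 8.27e-13). The long members thus had the widest gaps, with log2 values of -2.94 ± 0.072, -2.97 ± 0.065 and -2.91 ± 0.15 for Slfn5, Slfn8 and Slfn9. With the same total per library, where the median of all genes moved to 0.19, Slfn1 and Slfn3 passed under the fold threshold at -0.91 and -0.92, and calls of all genes were 780 higher and 1111 lower in place of 498 and 1307.

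LPS raised 6 of 7 members (all but Slfn3) and lowered 0 of 7, where 15.6% of all genes were called higher and 13.4% lower, and the members' median log2 fold change was 1.73 beside 0.02. With the same total per library the median of all genes was -0.46, 1808 genes were called higher and 4589 lower in place of 2791 and 2397, and Slfn1 was under the fold threshold at 0.52. It was just under the threshold at 0.97 with TMM scaling, 0.97 with edgeR and 0.99 with DESeq2 on recovered reads. Taken by label, the 7 values lay between 0.92 (Slfn3) and 3.22 (Slfn4) for LPS WT against nonconfined WT, and between 0.87 (Slfn1) and 2.7 (Slfn5) for LPS KO against nonconfined KO. Without the 3 LPS libraries whose Y-linked counts went against their label, a choice made after seeing the data, 6 of 7 members were called higher and 0 lower, where 14.9% and 12.9% of all genes were, and the values lay between 0.99 for Slfn3 and 2.92 for Slfn4. Without LPS library 3 labelled KO as well, which left 1 library per label with the spread between libraries taken from the other groups, 7 of 7 were called higher, Slfn3 with them at 1.004, where 14.6% of all genes were called higher and 13.2% lower.

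Between the LPS libraries labelled KO and WT, limma called 0 of 17875 genes (0% higher and 0% lower), with 890 at an unadjusted p under 0.05, and edgeR and DESeq2 on recovered reads also called 0. The members' log2 values there lay between -0.22 for Slfn9 and 0.083 for Slfn1 and Slfn4, in a comparison whose labels the Y-linked counts put in doubt. Without those 3 libraries 96 genes (0.453% higher and 0.0839% lower) and 0 of 7 members were called, and the members lay between -0.48 for Slfn9 and 0.1 for Slfn2. The WT label then rested on a single library, assumed to vary like the other groups. Without LPS library 3 labelled KO as well, each label held 1 library and the spread came wholly from the other groups, so the values of -0.45 for Slfn9 and 0.14 for Slfn2 compare those libraries and not the labels.

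Confined cPLA2 WT cells and the libraries labelled LPS cPLA2 WT, taken at different times, were also set against each other. Of 7 members, 2 (Slfn4 and Slfn5) were called lower in confined cells and 0 higher, where 7.51% of all genes were called lower and 6.32% higher. Slfn4 stood at -2.02 ± 0.048 and Slfn5 at -1.50 ± 0.072 on the log2 scale (limma adjusted p = 4.73e-18 and 2.62e-13). Slfn9 differed by -0.028 ± 0.15 (limma adjusted p = 0.897), and its sign turned with the same total per library (0.26, where the median of all genes also moved to 0.26), with TMM scaling (0.045) and with edgeR and DESeq2 on recovered reads (0.042 and 0.0064). Calls of all genes were 1907 higher and 895 lower with the same total per library, in place of 1130 and 1342. Without the 3 LPS libraries in doubt, Slfn1 (-1.003) and Slfn8 (-1.01) were called lower as well, which made 4 of 7, where 5.96% of all genes were called lower and 5.62% higher, and the single LPS WT library left was assumed to vary like the other groups.

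In the order of the condition means, both LPS conditions were highest for 6 of 7 members, all but Slfn9, and confined cPLA2 KO cells were lowest for 6 of 7, all but Slfn2. How many of all genes share these orders was not counted, so the orders describe the members and do not set them apart. Slfn2 was the member whose lowest mean was that of nonconfined WT cells (19598 ± 96.1, SD, n = 3), just below confined KO cells (20634 ± 218) without overlap. Confined WT cells came next after LPS for Slfn2, Slfn3, Slfn4, Slfn5 and Slfn8. For Slfn1 the means of nonconfined KO cells (6079 ± 264) and confined WT cells (5853 ± 129) were neighbours whose libraries overlapped. For Slfn9 the libraries labelled LPS WT (1916 ± 161), confined WT (1875 ± 5.3) and LPS KO (1656 ± 253) overlapped from each to the next.

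Levels of different members were compared per kilobase of exon in GENCODE, as normalized counts per kb. In nonconfined cPLA2 WT cells Slfn2 was the most abundant at 9833 ± 48.2 (SD, n = 3), which was 72.2% of the sum over the 7 members. Slfn1 followed at 2337 ± 64.7, then Slfn5 at 581 ± 5.77 and Slfn4 at 411 ± 6.61. Slfn8, Slfn9 and Slfn3 were the least abundant at 238, 112 and 108. The short members therefore made up most of the family's signal in every condition. The share of Slfn2 per kb was 74.9% ± 0.573 in confined WT cells and 83.4% ± 0.362 in confined KO cells, and the share of Slfn5 was 5.33% ± 0.299 and 1.39% ± 0.0286. Summed over the 7 members, the level per kb was 13619.5 in nonconfined WT, 24998 in confined WT, 15982 in nonconfined KO and 12414 in confined KO cells.

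The table held further rows of the family outside the 7 members. Slfn10-ps (GSMG0009710, chr11:82918956-82931360), which lies between Slfn8 and Slfn2, had 279.6, 267 and 254 normalized counts in nonconfined cPLA2 WT cells and 1364, 1562 and 1577 in confined cPLA2 WT cells. In cPLA2 KO cells it had 143, 247 and 182 when nonconfined and 603, 508 and 481 when confined, so that confined libraries were higher in both genotypes without overlap. Unlike the 7 members, it rose on confinement in KO as well, by 1.5 ± 0.13 on the log2 scale beside 2.49 ± 0.13 in WT (limma adjusted p = 7.86e-09 and 8.75e-13), with a difference of -0.98 ± 0.19 (limma adjusted p = 0.000434). The difference passed the fold threshold with TMM scaling (-1.02), edgeR (-1.04) and DESeq2 (-1.02). Slfn14, a gene of red cell and platelet precursors, and the distant relative Slfnl1 had at most 2.12 and 1.93 normalized counts in any library and were not tested.

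Related genes can share reads. Of the 100-base stretches in GENCODE transcripts, 3.36% of those of Slfn8 and 3.33% of those of Slfn9 also occurred in another Schlafen gene, mostly in Slfn10-ps, of whose own stretches 6.38% were shared. For Slfn2 and Slfn4 the shares were 0.106% and 0.0434%, and Slfn1, Slfn3 and Slfn5 shared 0. Only exact matches between Schlafen transcripts were counted, so nearly identical stretches and genes outside the family are not covered. How reads matching several genes were counted is not given in the sources used here. The values of Slfn8, Slfn9 and Slfn10-ps are therefore uncertain, by an amount these shares do not give. Exons of Slfn5 overlapped those of the antisense gene Slfn5os over 1283 bases, and Slfn5os had at most 5 reads in any library. The kits mark strand, but the strand setting of the counting is not given.

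The 7 members lie in 1 cluster on chromosome 11. Within 500 kb of its outermost members, and leaving out Slfn10-ps, 32 other entries of the table were tested. Of these, 12 were called higher and 2 lower on confinement of WT cells, and 1 higher and 3 lower in KO cells. With LPS, 14 were called higher and 3 lower. Slfn10-ps lies in the same window and was called higher in each of these comparisons, but is not in these counts. Of all genes, 11.4% and 7.62% were called higher and lower in WT, 6.43% and 5.53% in KO, and 15.6% and 13.4% with LPS. Of the 32, 2 entries without a symbol overlap a member, 1 of them inside Slfn1 and called higher in WT and the other over Slfn2 and called lower, so the counts are not independent of the members. The 26 entries outside the outermost members gave 8 higher and 1 lower in WT, 1 higher and 2 lower in KO, and 10 higher and 2 lower with LPS. Of the 12, 7 carry a gene symbol. Unc45b, a myosin chaperone gene next to Slfn5, went from 1.67 ± 1.55 normalized counts (SD, n = 3) to 21.9 ± 0.543 in WT cells, a log2 fold change of 3.32. In KO cells it had 2.34 ± 2.06 and, confined, 0.711 ± 1.23, with few reads in both states (limma adjusted p = 0.265). On the other side of the cluster, the chemokine gene Ccl5 and its neighbour Heatr9 were called higher in confined WT cells (1.26 and 1.27 on the log2 scale) and lower in confined KO cells (-1.98 and -2.06). Ccl5 stood at 6673 ± 84.8, 16003 ± 228, 5908 ± 485 and 1496 ± 108 normalized counts in nonconfined WT, confined WT, nonconfined KO and confined KO cells. The chemokine genes Ccl3, Ccl4 and Ccl9 and the gene Rffl were also called higher in WT (2.14, 2.7, 1.44 and 1.35), with 0.46, 0.68, 0.98 and 0.56 in KO. Ccl6, a chemokine gene and the most abundant entry of the window, was not called and went from 146969 ± 2154 to 178503 ± 3639 normalized counts in WT and from 188752 ± 9796 to 249353 ± 2172 in KO (0.28 and 0.40 on the log2 scale). AI662270, Ap2b1, Nle1 and Lig3 lay inside the same window with WT values of -0.20, 0.21, -0.56 and -0.25, chosen after their values were seen as examples of genes that were not called.

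**Figure D2:**
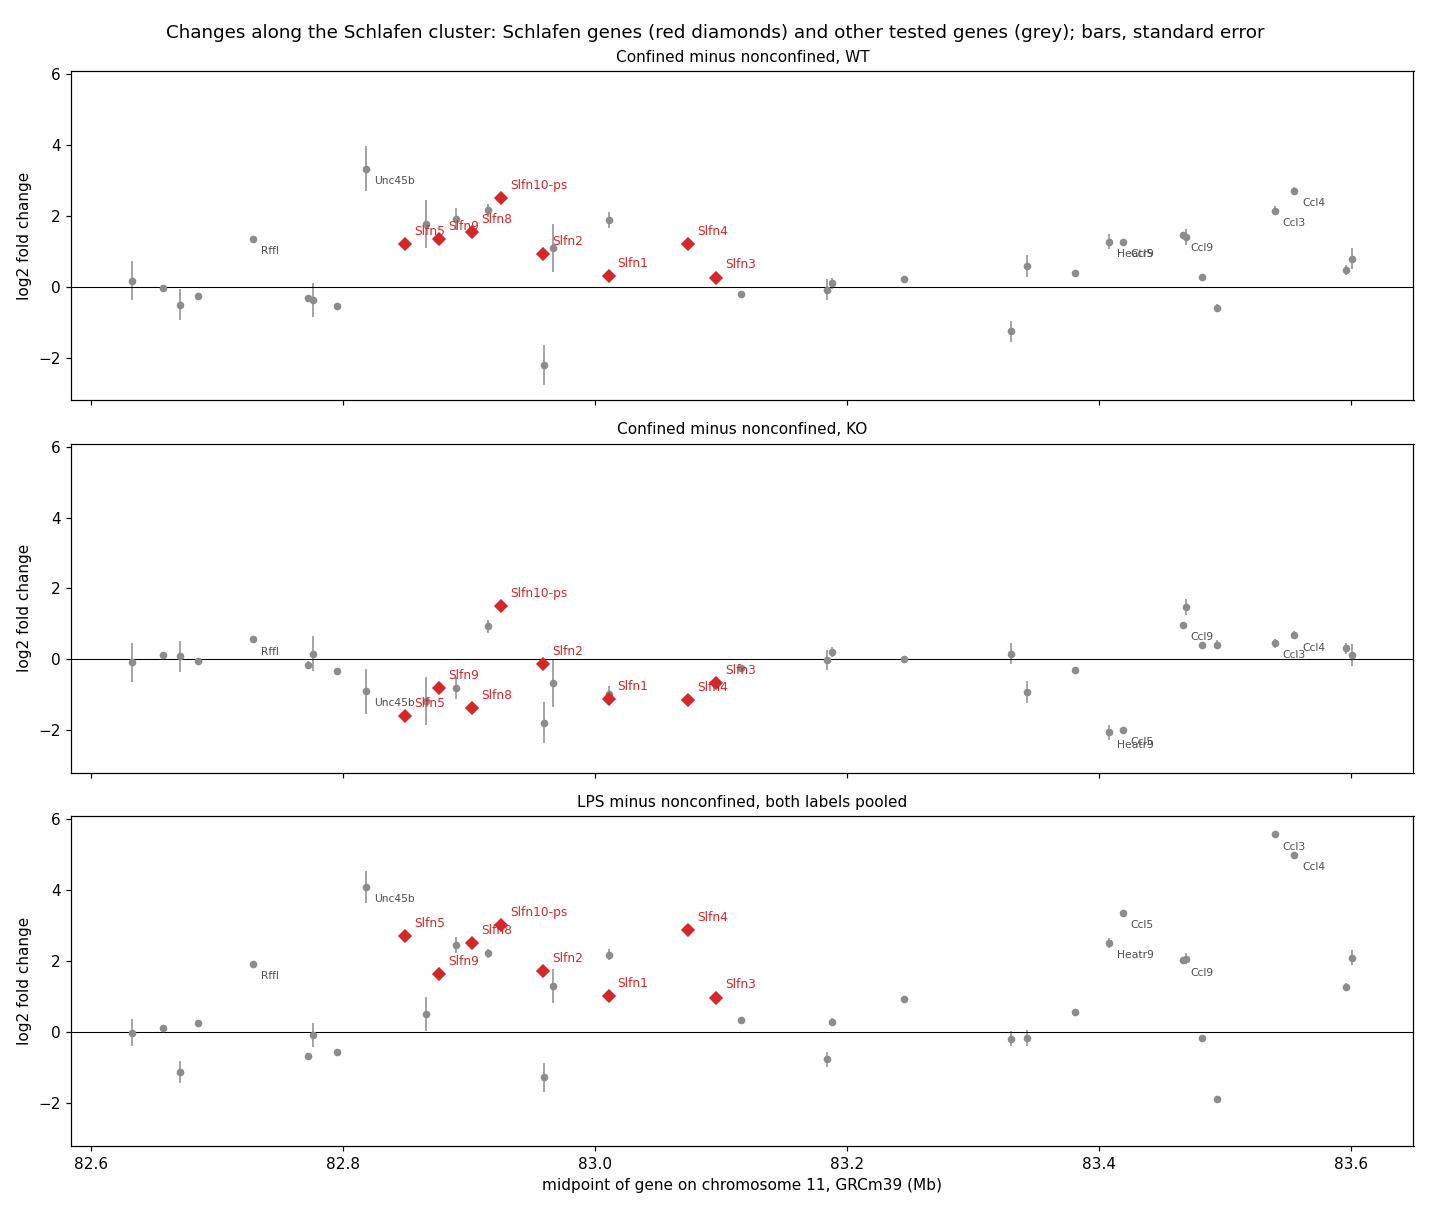
Log2 fold change (vertical axes, on normalized count + 1, with standard error bars) of Schlafen genes (red diamonds) and other tested genes (grey) by midpoint position on chromosome 11 in GRCm39 (horizontal axis, Mb), for confinement in WT, confinement in KO and pooled LPS. In the KO panel the 7 members lie below 0, from -0.13 to -1.60, and Slfn10-ps lies above at 1.5, signs that also held with the same total per library.

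Interferon signalling genes, the ligand, receptors, kinases, transcription factors and inhibitors of a pathway known to induce Schlafen genes, were counted beside the members. Of 19 listed and tested, 9 were called higher and 0 lower on confinement of WT cells, 1 higher and 3 lower in KO cells, and 11 had a lower response in KO. Of all genes, 11.4% were called higher and 7.62% lower in WT, 6.43% higher and 5.53% lower in KO, and 6.56% had a lower response in KO. Medians on the log2 scale were 0.99 in WT and -0.13 in KO, beside -0.0055 and 0.01 for all genes. With LPS 14 were called higher and 0 lower, where 15.6% and 13.4% of all genes were, with a median of 1.64 beside 0.02. Ifnb1, the interferon itself, had 3.05, 5.12 and 5.9 normalized counts in nonconfined WT and 105, 92.6 and 103 in confined WT cells. In KO cells it had 0, 1.86 and 3.88 when nonconfined and 11.9, 6.4 and 6.38 when confined. Ifnb1 thus had few reads in nonconfined and confined KO cells, and all confined WT libraries were higher. It was called higher on confinement in both genotypes, by 4.19 ± 0.42 on the log2 scale in WT and 1.88 ± 0.42 in KO (limma adjusted p = 2.3e-08 and 0.000904), with the KO libraries of the 2 states not overlapping, and the LPS libraries held 134 to 167 normalized counts.

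Stat2, a transcription factor activated by interferon receptors, had 6231, 5696 and 5945 normalized counts in nonconfined WT and 14302, 14321 and 14271 in confined WT cells. In KO cells it had 5249, 5621 and 5439.6 and, confined, 4123, 3663 and 3809. The confined WT libraries were all higher and the confined KO libraries all lower than the nonconfined libraries, and no 2 of the 4 groups overlapped. Its log2 fold changes in WT and KO were 1.26 ± 0.045 and -0.49 ± 0.045 (limma adjusted p = 8.18e-16 and 1.23e-08). Irf9, a subunit of the complex that binds interferon-stimulated response elements, gave 0.37 ± 0.056 and -0.97 ± 0.056, and Irf7, an amplifier of interferon production, gave 1.31 ± 0.047 and -1.29 ± 0.047. By the rule for named genes, Socs3, an inhibitor of cytokine signalling, went from 4144 ± 213 to 39834 ± 1421 normalized counts in WT (SD, n = 3) and from 4329 ± 143 to 5751 ± 184 in KO, and Irf3 was the gene with the lowest WT value, -0.17 ± 0.071.

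Other interferon-induced genes were listed as 24, of which 23 were in the table and tested. On confinement 15 were called higher and 0 lower in WT cells, 0 higher and 14 lower in KO cells, and 23 of 23 had a lower response in KO. Medians were 1.46 in WT, -1.15 in KO and 2.81 with LPS, which called 23 of 23 higher, beside all-gene medians of -0.0055, 0.01 and 0.02. The shares of all genes called were those given for the signalling genes, such as 11.4% higher in WT, 5.53% lower in KO and 15.6% higher with LPS. Isg15, a ubiquitin-like protein, had 2497, 2492 and 2380.1 normalized counts in nonconfined WT and 19019, 17447 and 18115 in confined WT cells. In KO cells it had 2438, 2242 and 2388 and, confined, 1059.6, 1098 and 1055, so that its means followed the same order over the 4 conditions as those of Slfn5. Cxcl10, a chemokine for T cells, and Rsad2, an antiviral enzyme, had the largest WT values, 6.63 ± 0.077 and 5.08 ± 0.056, with KO values of 0.60 ± 0.077 and 0.094 ± 0.056.

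NF-kB targets and AP-1 genes, which answer danger signals in myeloid cells, were tested as 18 of 18. On confinement 15 were called higher and 1 lower in WT, 5 higher and 0 lower in KO, and 14 had a lower response in KO, where 11.4% and 7.62% of all genes were called higher and lower in WT, 6.43% and 5.53% in KO, and 6.56% had a lower response in KO. Their medians were 2.04 and 0.29 in WT and KO, beside -0.0055 and 0.01 for all genes. Il1b, an inflammatory cytokine, went from 293 ± 25.4 to 102678 ± 3042 normalized counts in WT (SD, n = 3) and from 304 ± 39.7 to 4568 ± 173 in KO. Tnfaip3, an inhibitor of NF-kB, went from 1171 ± 25 to 23715 ± 299.8 in WT and from 1260.2 ± 101.2 to 2526 ± 100.4 in KO. Mmp9, a matrix protease, was the 1 gene called lower in WT, at -1.27 ± 0.26 on the log2 scale.

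Genes that cut transfer RNA or protect it, tested as 8 of 8, gave 0 called in either genotype on confinement, where 11.4% and 7.62% of all genes were called higher and lower in WT and 6.43% and 5.53% in KO. At an adjusted p under 0.05, 2 were higher and 4 lower in WT, where 28.2% of all genes were higher and 28.4% lower, and 4 were higher and 3 lower in KO, where 22.8% and 23.4% were. Their medians were -0.11 in WT and 0.13 in KO, beside -0.0055 and 0.01 for all genes, and 2 of 8 were called lower with LPS, as were 13.4% of all genes. The methyltransferase genes Nsun2 and Trmt61a had WT values of -0.85 ± 0.037 and -0.97 ± 0.16, and Trdmt1 and the ribonuclease inhibitor gene Rnh1 had 0.31 ± 0.16 and 0.65 ± 0.052. Genes linked with quiescence, the state the short members are known for, were tested as 12 of 12. Confinement called 3 higher and 1 lower in WT and 0 higher and 1 lower in KO, beside 11.4% and 7.62% of all genes in WT and 6.43% and 5.53% in KO. The calls in KO and the lower calls in WT stood near these shares. Medians were 0.85 and 0.13, beside -0.0055 and 0.01 for all genes. With LPS 6 were called higher and 2 lower, where 15.6% and 13.4% of all genes were. Foxo1 and Foxp1, forkhead transcription factors, rose in WT by 1.63 ± 0.066 and 1.34 ± 0.056, while the cyclin gene Ccnd1 fell by 2.32 in WT and fell by 2.42 in KO, and Foxo3 had -0.57 ± 0.088 in WT.

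Genes with a pattern like that of a member were sought by Pearson's r of log2(normalized count + 1) over the 18 libraries, among 10546 named genes whose mean level reached 100 normalized counts. These values describe likeness only, since the libraries fall into 6 conditions that every pair of genes shares. Among the 7 members themselves, r over the 21 pairs lay between 0.784 for Slfn4 with Slfn9 and 0.993 for Slfn5 with Slfn8. With the members, Slfn10-ps lay between 0.575 for Slfn1 and 0.869 for Slfn2. Slfn5 was closest to Dtx3l (r = 0.999), Trim30a (r = 0.998) and Ddx58 (r = 0.998). Slfn8 was closest to Il2ra (r = 0.998), Usp18 (r = 0.998) and Gbp4 (r = 0.997), and Slfn3 to Gbp7 (r = 0.993), Trim30a (r = 0.990) and Gbp9 (r = 0.989). Trim30a was thus among the first 3 for both Slfn3 and Slfn5. The closest genes of Slfn1 were AW112010 (r = 0.985), Oas2 (r = 0.984) and Ifi35 (r = 0.983). Slfn2 was followed by Sppl2a (r = 0.997), Cwc15 (r = 0.996) and Mapkapk2 (r = 0.996), and Slfn4 by Tdrd7 (r = 0.992), Mfhas1 (r = 0.992) and Akna (r = 0.990). The genes closest to Slfn9 were Themis2 (r = 0.975), Fgf23 (r = 0.975) and Mamld1 (r = 0.974).

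Promoter sequences of RefSeq (GRCm38.p6, 250 bases before to 50 after a start) were matched for all 7 members, with 2 entries for Slfn8 and 8 in total. The letters GAAANNGAA, the core of the interferon-stimulated response element, were searched on both strands and occurred in 4 of 8 entries, those of Slfn5, Slfn8 and Slfn9, and in 8.56% of all 32851 promoters. The entries of Slfn8 overlap and hold the same site, so by gene it was 3 of 7 members and 9.76% of 27025 genes. The sites of Slfn8 and Slfn9, close relatives, have the same letters in similar stretches. The first match of Slfn5 runs into a row of A. The 3 genes therefore need not be independent cases. TTCNNNGAA, the gamma-activated site, and GGGNNTTTC, a loose NF-kB form, occurred in 0 of 8 entries and in 8.3% and 4.36% of all promoters. No match means that these letters are not in this window. Slfn1, Slfn2, Slfn3 and Slfn4 held none of these letters. Whether the matches bear on the gap between confined WT and KO cells was not tested. The stretches around the matches are shown with each match in capitals, outside annotated exons and placed in GRCm39 by exact match.
Slfn9: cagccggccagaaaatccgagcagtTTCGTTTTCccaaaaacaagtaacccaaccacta
Slfn8: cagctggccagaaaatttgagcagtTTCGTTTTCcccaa
Slfn5: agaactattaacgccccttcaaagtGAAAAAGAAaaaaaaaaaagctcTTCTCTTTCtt
The stretch of Slfn9 (chr11:82882667-82882725, minus strand) and that of Slfn8 (chr11:82911670-82911708, minus strand) lie before every annotated transcript of their genes and hold the match on the reverse strand, and that of Slfn5 (chr11:82842748-82842806, plus strand), which holds 2 matches, the first on the strand shown and the second on the reverse strand, lies in an intron of another Slfn5 transcript.

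Markers of other cells differed between the same groups. The summed normalized counts of 10 neutrophil markers were 255547, 260656 and 259400 in nonconfined WT, 187331, 178148 and 176335 in confined WT, 398436, 357302 and 384160 in nonconfined KO and 355423, 367066 and 351426 in confined KO cells, with S100a9 the most abundant gene. Of these 10, 7 were called higher and 0 lower in confined KO than in confined WT cells, where 2.79% of all genes were called higher and 7.31% lower. The 6 eosinophil markers, led by Prg2, summed to 31132, 30919 and 30844 in nonconfined WT, 8934, 8379 and 8279.7 in confined WT, 75852, 70606 and 72713 in nonconfined KO and 21660.5, 21242 and 22078 in confined KO cells, and 4 of 6 were called higher and 1 lower in confined KO than in confined WT, beside the same shares of all genes. In the LPS libraries the eosinophil sums were 43969, 25589 and 35214 under the WT label and 25523, 43976 and 35822 under the KO label, and the neutrophil sums were 400565, 362754 and 377526 and 353703, 408040 and 381833. In both lists no gene was under 10 normalized counts throughout a condition, and their part in the Schlafen differences was not tested. The culture method of the study is described as removing granulocytes, which do not adhere, and collecting the loosely attached cells as DCs, and these values were measured in the cells so obtained.

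The 10 dendritic cell markers, led by Cd74, summed to 446807, 421433 and 426586 in nonconfined WT, 414096, 384830 and 397490 in confined WT, 528018, 495991 and 515487 in nonconfined KO and 364846, 351182 and 364000 in confined KO cells, with 0 called higher and 3 lower in confined KO against confined WT, where 2.79% of all genes were called higher and 7.31% lower. The 8 macrophage markers, led by Csf1r, summed to 54579, 52346 and 52935, 50089, 48391 and 49069, 55372, 59219 and 57279.6 and 53214, 48383 and 51088 in the same order. The 6 mast cell or basophil markers, led by Cpa3, gave 6847, 7088 and 6952, 3556, 3418 and 3480.1, 10458, 10145 and 9969 and 5530.0, 5417 and 5593. Of the lymphocyte lists, the 7 T cell markers summed to between 2763 and 5068 in the nonconfined and confined libraries, with Cd3g or Cd28 the most abundant. In those libraries the 5 B cell markers summed to at most 81.0. With LPS the T cell sums lay between 1202 and 1453, and the B cell sums reached at most 113. The 4 NK cell markers summed to at most 9.6 in any library, each under 10 in every condition. Of the 4 plasmacytoid dendritic cell markers, Tcf4 gave most of the sum, which was 355, 355 and 321 in nonconfined WT and 819, 831 and 830.3 in confined WT cells, where Siglech and Klk1 were under 10. In KO cells the sum was 284, 306 and 298 when nonconfined and 298, 298 and 309 when confined, where the 2 states overlapped, as they did not in WT. With LPS it was 1559, 2244 and 1912 under the WT label and 2071, 1459 and 1743 under the KO label. Its part in the Schlafen differences was not tested.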

How the data were processed

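The authors' deposited table held signal values, gene counts divided by 1 DESeq2 size factor per library, for 62197 annotated entries, of which 37020 carry no symbol. Per the study's methods and the labels, poly-A RNA was sequenced from stranded kits, mapped with STAR 2.7.5a to mm39 and counted with featureCounts 1.5.0 on the FAST DB annotation. Dividing each library by the value of 1 read gave back whole reads for 100% of values (tolerance 1e-06), 33027230 to 61300021 per library, and 208 to 90182 for any member, so counting error of the members was small. The main test was limma 3.58.1 in R 4.3.3 (trended eBayes, all 18 libraries, 6 conditions) on log2(normalized count + 1), with Benjamini-Hochberg adjustment over the 17875 genes that reached 10 normalized counts in 3 or more libraries. A call needed an adjusted p under 0.05 and a log2 fold change beyond 1. On recovered reads, edgeR 4.0.16 called 3393 genes and DESeq2 1.42.0 called 3502 for confinement in WT, beside 3400 by limma. On simulated data of 17875 genes for that comparison, the test was checked and found 198 of 200 changed genes, with 2 false calls. Scaling, filter, pseudocount, tool, thresholds, replicate block and left-out libraries were varied. Leaving out 3 or 4 LPS libraries was chosen after seeing the data. Each list's named genes were up to 2 above 0 with the highest and up to 2 below 0 with the lowest change on confinement of WT cells, fewer where fewer lay on that side, plus Stat2, Irf9, Irf7, Ifnb1 and Isg15; 1 further gene of that rule is not reported here. Members and lists were chosen with earlier results of these data known. Exon lengths came from GENCODE. Figures were drawn with matplotlib 3.10.9. Proteins were not compared here.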

Additional observations from a re-analysis of the deposited data

Results flagged for a closer look

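The confinement response differed between cPLA2 KO and cPLA2 WT cells for each of the 7 Schlafen members by limma's test of the difference with Benjamini-Hochberg adjustment, which set them apart for a second look. At an adjusted p under 0.05 all 7 were lower, as were 15.6% of the 17875 genes tested, and 6 of 7, all but Slfn3, were also past the fold threshold, as were 6.56%. KO minus WT, the difference of the log2 fold changes was -1.43 for Slfn1 and -1.06 for Slfn2 among the short members. It was -0.92 for Slfn3 and -2.34 for Slfn4, the intermediate members. It was -2.79 for Slfn5, -2.91 for Slfn8 and -2.16 for Slfn9, the long members. Slfn10-ps, which lies in the same cluster, gave -0.98, which was not past the fold threshold; it was with TMM scaling (-1.02), edgeR (-1.04) and DESeq2 (-1.02), and was -0.80 with the same total per library. With 1 library left out it ranged from -1.17 without nonconfined KO replicate 1 to -0.78 without nonconfined KO replicate 2. With the same total per library the difference of Slfn2 was -0.87. The KO and WT libraries also differed in Y-linked transcripts, so genotype and the presence of these transcripts cannot be told apart here. Since Xist was counted in every library, the KO libraries do not look like male cells alone.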

How the results depend on the processing

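Of 1296 values of the members and Slfn10-ps under other settings, 1225 kept their direction and their side of the thresholds of that setting. Another 50 newly passed those thresholds, 11 fell short of them and 10 turned in sign. Many of the 50 passed only because the rule was looser (adjusted p alone, or the thresholds of the study's methods), with the fold change itself unchanged. Unless said otherwise, the cause was not tested. With the same total per library, 2 members were called on confinement of WT cells, and Slfn9 turned to 0.26 in confined WT against LPS WT, as it did with TMM scaling (0.045), edgeR (0.042) and DESeq2 (0.0064), with a leave-one-out range of -0.063 to 0.041 that turned without LPS WT replicate 2. With a filter of 100 normalized counts, which tests fewer genes, 1999 genes were called for confinement in WT, 1087 in KO, 96 for nonconfined KO against WT, 1061 for confined KO against WT, 3148 for LPS and 1352 for confined WT against LPS WT. By adjusted p alone, a looser rule, the counts were 10113, 8271, 1588, 7038, 12774 and 8734 in that order and 4619 for the difference between responses, with 7, 7 and 4 members in the first 3 and 6 for confined WT against LPS WT. By the thresholds of the study's methods, a fold of 1.5 and an unadjusted p of 0.05, they were 6167, 4227, 1000, 3475, 8238 and 4688, and 2956 for the difference, with 2 members for nonconfined KO against WT and 6 for confined WT against LPS WT. Between the LPS labels, 316 genes passed those thresholds, 1 was called with no filter, 96 without the 3 libraries in doubt and 187 without LPS KO 3 as well, where each label held 1 library and the spread came wholly from the other groups, both chosen after seeing the data, and 0 to 1 with any 1 library left out. There Slfn1 turned to -0.14 without the 3 and -0.19 without the 4 libraries, and Slfn2 ranged from -0.032 to 0.050 over the libraries left out. Confined WT against LPS WT called 4 members without the 3 or the 4 libraries. With 1 library left out, nonconfined KO against WT called 125 to 238 genes, with 125 without WT replicate 2 or KO replicate 1, and members called ranged from 5 to 7 for LPS, 6 to 7 for the difference and 2 to 3 for confined WT against LPS WT. Slfn1 lost its LPS call without LPS WT replicate 2 (0.97) or LPS KO replicate 1 (0.98), and Slfn3 gained one without nonconfined WT or KO replicate 2 (1.00 and 1.02). Slfn3 was called for the difference without nonconfined KO replicate 1 (-1.05). Slfn8 was called for confined WT against LPS WT without confined WT replicate 2 (-1.02) or LPS WT replicate 3 (-1.01). With the replicate number as a replicate block, 80 of 80 values kept their side, and 3392 genes were called for confinement in WT. Residuals of libraries with the same number correlated by -0.142 to 0.338. Between confined KO and confined WT libraries the values were 0.338, 0.208 and 0.040 for replicates 1, 2 and 3. Whether the numbers pair the libraries was therefore not settled. Depth did not limit the members, which had at least 208 reads in each library.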
